A study of Mus musculus with 24 samples.

Results

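Oxysterols are hydroxylated forms of cholesterol, and in brain they are the main form in which cholesterol leaves the tissue. CYP46A1, the cholesterol 24-hydroxylase of neurons, makes 24S-hydroxycholesterol, and CYP39A1 is an oxysterol 7-alpha-hydroxylase that acts on that product. CYP7B1 is a second oxysterol 7-alpha-hydroxylase, with a preference for the side chain products made by CYP27A1, the mitochondrial sterol 27-hydroxylase, and by CH25H, the cholesterol 25-hydroxylase. Oxysterols are ligands of the LXR receptors and of INSIG proteins, through which they act on cholesterol export and synthesis.

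The genes described are *Cyp39a1*, *Cyp46a1*, *Cyp7b1* and *Cyp27a1*, which are 4 of 5 genes listed for these enzymes and 4 of 13998 genes in the table of hypothalamic expression. *Ch25h* was not analysed here. *Cyp39a1* was taken up because its level differed between the genotypes in these same mice, so its genotype difference is described without a test, while the others were listed for their role in the pathway.

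Gene expression was measured by SAGE-Seq in the hypothalamus of 24 adult male F2 mice, with 1 library per mouse. The 12 *cast/cast* mice carried CAST/EiJ alleles across the B6.CAST-17.1 subcongenic segment of chromosome 17, the 12 *b6/b6* mice carried C57BL/6J alleles there, and elsewhere in the genome both carried C57BL/6J alleles. All mice came from 1 congenic male crossed to C57BL/6J females. All could choose for 10 d between a carbohydrate-rich (C/P) and a fat-rich (F/P) diet, both with protein, while intake was measured. They were then returned to chow, were given the choice diets again shortly before euthanasia, and were fasted before it. Mice were picked from the extremes of intake, so genotype and C/P intake (36.4 ± 3.93 kcal over 10 d for *b6/b6* and 86.8 ± 9.08 kcal for *cast/cast*, SD, n = 12 each) cannot be told apart. Each library held 7754202 to 13082873 tag hits, and normalized counts are tag hits divided by a size factor for the library.

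The tissue label was checked against marker genes. Of 11 hypothalamic neuropeptide genes 10 were in the table, and *Pmch*, which encodes melanin-concentrating hormone, was the most abundant of them with a mean of 8130 normalized counts. Of 7 pituitary markers only 3 were in the table, and of 7 choroid plexus markers 5. Those in the table were low, the most abundant being *Gh* at 42.5 and *Kl* at 72.0 normalized counts. Their sums ranged from 0 to 470.9 and from 103.8 to 574.5 normalized counts among mice.

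In all, 4 of 24 libraries stood apart by their correlation with the other libraries, namely *cast/cast* replicates 4 and 6 and *b6/b6* replicates 6 and 12. Where leaving these libraries out changed a call, turned the sign of a difference or correlation given here, or moved a log2 difference by more than 1.5 times, that value is given too. Study number, which the labels give for each mouse, was 269.5 at the *b6/b6* median and 120.5 at the *cast/cast* median, so study number was partly confounded with genotype.

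A SAGE library holds 1 short tag per transcript, taken at the CATG site nearest the 3′ end, so each transcript is counted through a single stretch of 27 bases, and transcripts of a gene that end differently can give different tags. The tag of 1 transcript per gene, predicted from the C57BL/6J reference, is shown, with the CATG anchor in capitals, together with that of *Slc25a27*, the nearest gene to *Cyp39a1* in the table. They come from GENCODE transcripts on GRCm38, and whether the reads came from them was not tested. In the chromosome 17 segment *cast/cast* mice carry CAST/EiJ sequence. Whether it changes the tag or CATG site of *Cyp39a1* or other genes there, and with it their tag counts, was not tested.
Cyp39a1: CATGgtggctgtatatctcttctcagg
Cyp46a1: CATGtgaccagctgccctgccaggctg
Cyp7b1: CATGaattacactgtatgaaaattttc
Cyp27a1: CATGtcacgatgtcagattcaacagga
Slc25a27: CATGcaaacacaactattgaaaaaaaa

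Every tag lay in the 3′ UTR of the last exon, and none was the predicted tag of another gene. The *Cyp39a1* tag is at chr17:43751045-43751071 on the plus strand in exon 12 of 12, 387 bases from the 3′ end of the transcript, and is the last tag of 1 of 4 annotated transcripts. The *Cyp46a1* tag is at chr12:108362104-108362130 on the plus strand in exon 15 of 15, and is the last tag of 1 of 4. The *Cyp7b1* tag, from its only annotated transcript, is at chr3:18072014-18072040 on the minus strand in exon 6 of 6. The *Cyp27a1* tag is at chr1:74737736-74737762 on the plus strand in exon 9 of 9, and is the last tag of 2 of 3. Since a transcript gives 1 tag whatever its length, tag counts of different genes were compared without dividing by length.

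*Cyp46a1* was the most abundant of the oxysterol enzyme genes, followed by *Cyp7b1*, with *Cyp39a1* and *Cyp27a1* far below. Over all 24 mice the mean was 871 normalized counts for *Cyp46a1*, 269.6 for *Cyp7b1*, 16.6 for *Cyp39a1* and 9.30 for *Cyp27a1*. These levels lay at the 83.5, 62.1, 12.0 and 4.62 percentiles of the means of all genes. *Cyp46a1* was above *Cyp7b1*, and *Cyp7b1* above both of the others, in 24 of 24 mice. *Cyp39a1* exceeded *Cyp27a1* in 10 of 12 *b6/b6* but in only 7 of 12 *cast/cast* mice, so the order of the last pair was not separated from the spread between mice in *cast/cast*. In bulk tissue, fewer cells of a type and less RNA per cell cannot be told apart.

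**Figure D1:**
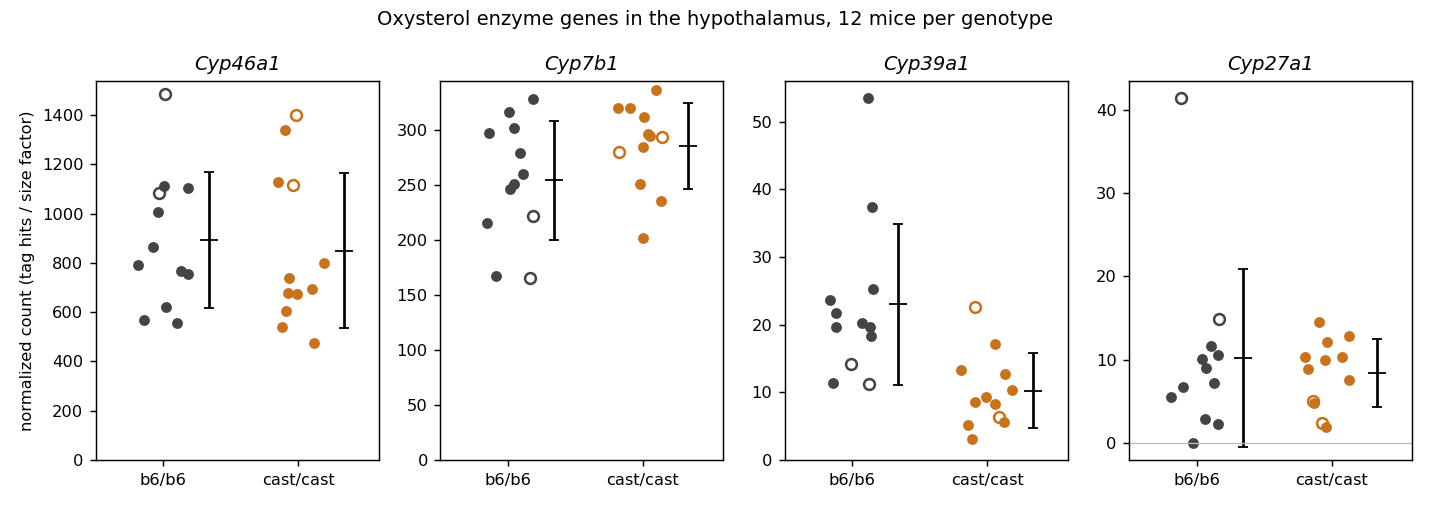
Normalized counts (tag hits divided by the size factor) of each oxysterol enzyme gene in 12 *b6/b6* and 12 *cast/cast* mice, each panel with its own linear scale. Points are mice, open points are libraries that stand apart, and bars are the mean ± SD. *Cyp39a1* lies lower in *cast/cast* with some overlap, the genotypes overlap widely for *Cyp46a1* and *Cyp7b1*, and 1 open *b6/b6* point at 41.3 carries much of the *Cyp27a1* spread.

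*Cyp39a1* (NM_018887, chr17:43667425-43751431, plus strand) lies within the CAST segment. In *b6/b6* mice it ranged from 11.2 to 53.5 normalized counts with a median of 19.9996, and the mean was 23.01 ± 11.9 (SD, n = 12). In *cast/cast* mice it ranged from 3.11 to 22.6 with a median of 8.98, and the mean was 10.2 ± 5.52 (n = 12). The genotypes overlapped, although 8 of 12 *cast/cast* mice were below every *b6/b6* mouse and 4 *b6/b6* mice were above every *cast/cast* mouse. The mean was 2.25-fold lower in *cast/cast*, and the log2 difference was -1.12 on the log2(normalized count + 1) scale.

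This level rested on few reads, from 10 to 68 tag hits per *b6/b6* mouse and from 3 to 19 per *cast/cast* mouse. With 3 tag hits taken as the smallest signal detectable in a mouse, 12 of 12 *b6/b6* and 11 of 12 *cast/cast* mice exceeded it. The highest *cast/cast* value, 22.6 in replicate 6, and 1 of the lowest *b6/b6* values, 11.2 in replicate 6, came from libraries that stand apart. Without these libraries the means were 25.1 ± 12.0 for *b6/b6* and 9.37 ± 4.24 for *cast/cast* (n = 10 each), a log2 difference of -1.34. With study number as a covariate the log2 difference was -1.04, and without *b6/b6* replicate 4, the highest value, it was -1.003.

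*Cyp46a1* (NM_010010, chr12:108334381-108362234, plus strand), which supplies the substrate of CYP39A1, did not differ between the genotypes beyond the spread between mice. It ranged from 555 to 1488 normalized counts with a median of 828 in *b6/b6* mice, and from 473 to 1402 with a median of 716 in *cast/cast* mice. The means were 893 ± 275 and 849 ± 315 (n = 12 each), the ranges overlapped almost entirely, and the log2 difference was -0.10 ± 0.19 (SE). Its 95% confidence interval ran from -0.49 to 0.29, which is from 0.713- to 1.23-fold (limma, *P* = 0.615, adjusted *P* = 0.894). The highest value of each genotype, 1488 in *b6/b6* replicate 12 and 1402 in *cast/cast* replicate 4, came from a library that stands apart.

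*Cyp7b1* (NM_007825, chr3:18071950-18243338, minus strand) was the steadiest of the 4 genes, with a coefficient of variation of 21.4% among *b6/b6* and 13.6% among *cast/cast* mice. It ranged from 165 to 328 normalized counts with a median of 255 in *b6/b6*, and from 202 to 336 with a median of 294 in *cast/cast* mice. The means were 254 ± 54.2 and 285 ± 38.9. Only 1 *cast/cast* mouse was above every *b6/b6* mouse. The log2 difference was 0.19 ± 0.13 with an interval from -0.08 to 0.45 (limma, *P* = 0.162, adjusted *P* = 0.680), and it was 0.11 without the libraries that stand apart.

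*Cyp27a1* (NM_024264, chr1:74713574-74737890, plus strand) was near the limit of detection, and 9 of 12 *b6/b6* and 10 of 12 *cast/cast* mice had more than 3 tag hits. It ranged from 0 to 41.3 normalized counts with a median of 8.15 in *b6/b6*, and from 1.89 to 14.5 with a median of 9.46 in *cast/cast* mice. The means were 10.2 ± 10.7 and 8.398 ± 4.11, and the highest 2 *b6/b6* values, 15.0 and 41.3, both came from libraries that stand apart. The log2 difference of 0.08 ± 0.43 had an interval from -0.81 to 0.97, or 0.571- to 1.96-fold (limma, *P* = 0.851, adjusted *P* = 0.968). No direction can be given, since the sign was negative with edgeR (-0.26), DESeq2 (-0.27), a pseudocount of 5 (-0.02) or study number as a covariate (-0.06), whereas the value was 0.60 without the libraries that stand apart.

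In the fit across all genes, genes were called at *P* ≤ 0.01 before adjustment with means at least 1.5-fold apart. This held for 1.49% of genes, while 8.13% had an unadjusted *P* under 0.05 and 0.572% an adjusted *P* of at most 0.05. Among the 3 oxysterol enzyme genes other than *Cyp39a1*, 0 were called by limma, 0 by edgeR (2.79% of all genes) and 0 by DESeq2 (2.82%), and 0 had an unadjusted *P* under 0.05 in limma. The interval of *Cyp46a1* excludes a difference of 1.5-fold in either direction, as does that of *Cyp7b1*, but that of *Cyp27a1* does not.

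Genes around *Cyp39a1* were described next, because the whole neighbourhood carried CAST alleles in *cast/cast* mice. Of 6 other genes starting within 500 kb of it, 2 were called lower in *cast/cast*, against 1.01% of all genes, and 1 was called higher, against 0.471%. These shares are over the whole genome, and the share called within the CAST segment is not given here. *Slc25a27*, which encodes a mitochondrial carrier of the uncoupling protein family, lies head to head with *Cyp39a1* at chr17:43641900-43667015 on the minus strand, and 409 bases separate the ends at which they start. It ranged from 25.3 to 155.5 normalized counts with a median of 40.0 in *b6/b6*, and from 11.4 to 55.5 with a median of 25.7 in *cast/cast* mice. The means were 58.0 ± 42.8 and 26.3 ± 12.5, with 6 of 12 *cast/cast* mice below every *b6/b6* mouse. *Slc25a27* was called lower in *cast/cast* at a log2 difference of -1.01 ± 0.29 (limma, *P* = 0.00164), but did not pass adjustment over all genes (adjusted *P* = 0.201). The 2 highest *b6/b6* values came from libraries that stand apart, and without these the means were 40.1 ± 9.48 and 24.4 ± 12.8, at a log2 difference of -0.80.

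*Pla2g7*, which encodes the platelet-activating factor acetylhydrolase of plasma, starts 99.0 kb before *Cyp39a1* and showed the largest difference in the neighbourhood. It ranged from 252 to 1225 normalized counts for *b6/b6* mice but only from 0.953 to 10.4 for *cast/cast* mice, so the genotypes did not overlap, which held for 0.336% of all genes. The log2 difference was -6.73 ± 0.29 (limma, adjusted *P* = 7.94e-16). These are tag counts, and whether the *Pla2g7* tag differs in CAST/EiJ sequence was not tested.

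*Enpp4*, of the ectonucleotide pyrophosphatase/phosphodiesterase family, was higher in *cast/cast* at 534 ± 215 against 323 ± 53.3 normalized counts, a log2 difference of 0.65 ± 0.17 (limma, *P* = 0.00052, adjusted *P* = 0.0837). Its call was lost without the libraries that stand apart, at a log2 difference of 0.55, and without *cast/cast* replicate 6 alone, at 0.55. *Enpp5*, its relative next to it, was not called, with a log2 difference of -0.50 ± 0.13 and a ratio of 1.43 (limma, *P* = 0.000598, adjusted *P* = 0.0941). It was called lower without the libraries that stand apart, at -0.59, and with libraries rescaled to the same total, also at -0.59. *Rcan2*, a regulator of calcineurin, and *Gpr116*, an adhesion receptor, had log2 differences of -0.26 ± 0.17 and -0.16 ± 0.11 and were not called.

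**Figure D2:**
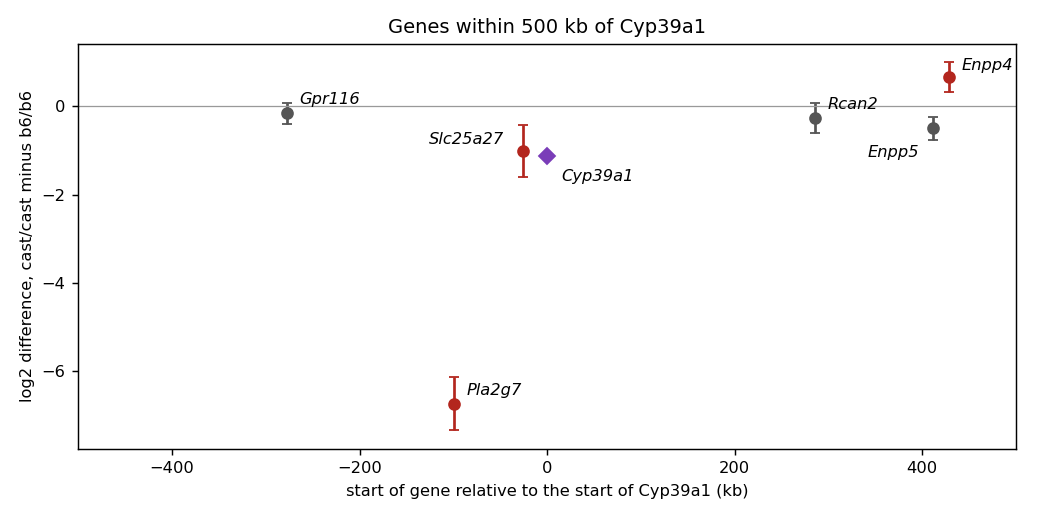
Log2 difference in normalized count + 1, *cast/cast* minus *b6/b6*, against the position of each gene's start (its lower coordinate on either strand) relative to that of *Cyp39a1* in kb. Bars are 95% confidence intervals from limma with 12 mice per genotype, called genes are red, genes not called are grey, and *Cyp39a1* (violet diamond) is shown without an interval because it was chosen for its difference. *Cyp39a1* and *Slc25a27* lie at -1.12 and -1.01, *Pla2g7* at -6.73, and *Enpp4* above 0 at 0.65.

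No relation between *Cyp39a1* and *Slc25a27* from mouse to mouse was detected. After the genotype mean was removed, Pearson's r over 24 mice was -0.07 (permutation *P* = 0.759, adjusted over 6 neighbours 0.759) and Spearman's rho was -0.11 (permutation *P* = 0.610). The sign of r was not stable, at 0.26 over the 20 mice left without the libraries that stand apart (permutation *P* = 0.293) and -0.25 on linear normalized counts (permutation *P* = 0.336). With *Enpp5* r was 0.50 (permutation *P* = 0.012, adjusted *P* = 0.072) with a rho of 0.47 (permutation *P* = 0.023, adjusted *P* = 0.140), and r was 0.54 without the 2 mice farthest from the median. Over the same 20 mice r with *Rcan2* was 0.59 (permutation *P* = 0.00658, adjusted *P* = 0.0395) and rho was 0.59 (permutation *P* = 0.00752, adjusted *P* = 0.0451), against an r of 0.31 over all 24 (permutation *P* = 0.144, adjusted *P* = 0.369).

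The genes that act before or after these enzymes were examined in 7 lists. The count at an unadjusted *P* under 0.05 in limma, given for each list, compares with 8.13% of all genes. Of the genes of oxysterol and bile acid catabolism, 7 of 14 were in the table and 0 of 7 were called by limma, 0 by edgeR and 0 by DESeq2, with 1 at an unadjusted *P* under 0.05. That gene was *Abcd3*, a peroxisomal transporter of bile acid intermediates and the most abundant of the list, with *b6/b6* at 3596 ± 500 and *cast/cast* at 2642 ± 1015 normalized counts (log2 difference -0.58 ± 0.22, limma, *P* = 0.0131, adjusted *P* = 0.527). Next by mean came *Scp2*, the sterol carrier protein of peroxisomes, at a log2 difference of 0.01 ± 0.18. *Hsd17b4*, the peroxisomal bifunctional enzyme, followed at a mean of only 72.0 normalized counts, with a log2 difference of -0.41 ± 0.29. The log2 differences of *Scp2* and *Hsd17b4* were 0.14 and 0.06 without the libraries that stand apart. The median log2 difference of the list was -0.25, against -0.02 over all genes. *Hsd3b7*, whose product follows the 7-alpha-hydroxylases in the pathway and which was named after its value was seen, was at 58.9 (*b6/b6*) and 39.5 (*cast/cast*) normalized counts (limma, *P* = 0.062, adjusted *P* = 0.614).

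Cytochrome P450 enzymes need electrons from partner proteins, and all 7 of the redox partners listed were in the table. None of the 7 was called by limma, edgeR or DESeq2, and 2 had an unadjusted *P* under 0.05. *Por*, the reductase that serves microsomal P450 enzymes such as CYP46A1, CYP39A1 and CYP7B1, was the most abundant with *b6/b6* at 2241 ± 356 and *cast/cast* at 2606 ± 388 normalized counts (log2 difference 0.22 ± 0.11, limma, *P* = 0.0629, adjusted *P* = 0.615). *Pgrmc1*, a haem-binding partner, had a log2 difference of -0.39 ± 0.18 (*P* = 0.0387, adjusted *P* = 0.607) and *Cyb5b* one of -0.09 ± 0.13. *Cyb5r3*, named after its value was seen, had a log2 difference of 0.40 ± 0.14 (limma, *P* = 0.00844, adjusted *P* = 0.472) at a ratio of 1.29, below the ratio a call required. Without the libraries that stand apart the log2 difference of *Cyb5r3* was 0.23 (limma, *P* = 0.0954), that of *Pgrmc1* -0.27 (*P* = 0.137) and that of *Cyb5b* -0.17.

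A list of 13 oxysterol sensors also held related genes, such as the RXR receptors that pair with LXR receptors. Of the 13, 1 was called lower and 0 higher by limma, against 1.01% and 0.471% of all genes. EdgeR called 1 lower, against 2.36% of all genes, and DESeq2 called 3 lower, against 2.24%, adding *Rxrg* and *Srebf2*. The gene called by each tool was *Rxrb*, the retinoid X receptor beta with which LXR receptors pair, at chr17:34031812-34038403 within the CAST segment. It ranged from 522 to 1398 normalized counts with a median of 894 in *b6/b6*, and from 92.6 to 284.5 with a median of 208 in *cast/cast* mice, with no overlap. Its log2 difference was -2.21 ± 0.19 (limma, adjusted *P* = 3.11e-09). The genes of highest mean in the list, *Insig1*, *Rxra* and *Rorb*, had log2 differences of 0.12 ± 0.29, 0.20 ± 0.22 and -0.05 ± 0.29. Without the libraries that stand apart these were -0.38, -0.16 and -0.46. The median of the list was 0.05.

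Unadjusted *P* values under 0.05 were also found for 2 genes of the sensor list, *Nr1h2* and *Srebf2*, named, like *Rxrg*, after their values were seen. *Nr1h2*, which encodes LXR beta, was at 236 ± 84.8 for *b6/b6* and 331 ± 123 for *cast/cast* (log2 difference 0.48 ± 0.20, limma, *P* = 0.0234, adjusted *P* = 0.578), and it was called higher without *b6/b6* replicate 3. *Srebf2*, which encodes the master activator of sterol synthesis, had a log2 difference of -0.76 ± 0.35 (*P* = 0.0359, adjusted *P* = 0.604), and it was called lower with DESeq2 and with study number as a covariate. The *Srebf2* value rested on high *b6/b6* mice, up to 620 normalized counts, and the means without the libraries that stand apart were 103.6 for *b6/b6* and 94.2 for *cast/cast*, at a log2 difference of -0.25 (limma, *P* = 0.381).

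Of 11 oxysterol-binding proteins tested, which carry sterols and lipids between membranes, 0 were called by limma and 0 by DESeq2. EdgeR called 1, against 2.79% of all genes, and 1 had an unadjusted *P* under 0.05 in limma, against 8.13%. The gene called by edgeR, lower in *cast/cast*, was *Osbpl5*, and the gene under 0.05 in limma was *Osbp*, the founding member, both named after their values were seen. *Osbp* was at 235 ± 89.9 for *b6/b6* and 165 ± 48.9 for *cast/cast* (log2 difference -0.50 ± 0.18, limma, *P* = 0.0107, adjusted *P* = 0.499). Without the libraries that stand apart it was at 203 and 179, a log2 difference of -0.20 (limma, *P* = 0.148). The 3 most abundant, *Osbpl2*, *Osbpl8* and *Osbpl9*, had log2 differences of 0.21 ± 0.13, -0.22 ± 0.36 and 0.22 ± 0.21, and *Osbpl8* was at -0.61 without the libraries that stand apart. With 1 mouse left out *Osbpl8* came as near to 0 as -0.068, without *cast/cast* replicate 1, and *Osbpl9* was 0.029 without *b6/b6* replicate 4. The median of the list was -0.28.

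Genes that LXR receptors induce gave 0 calls of 10 tested by limma, 0 by edgeR and 0 by DESeq2, with 1 at an unadjusted *P* under 0.05. *Abca1*, the exporter of cholesterol to apolipoproteins, ranged from 72.4 to 218.6 normalized counts for *b6/b6* and from 46.3 to 98.8 for *cast/cast* (log2 difference -0.49 ± 0.17, limma, *P* = 0.00863, adjusted *P* = 0.472). Its ratio of 1.46 was just below that of a call, and *Abca1* was called lower when libraries were rescaled to the same total, without *cast/cast* replicate 2 or without *b6/b6* replicate 9. Without the libraries that stand apart its log2 difference was -0.31 (limma, *P* = 0.0447). *Apoe*, *Scd2* and *Srebf1*, the 3 most abundant, had log2 differences of 0.07 ± 0.18, -0.09 ± 0.16 and 0.15 ± 0.28. The values of these 3 genes were 0.03, -0.26 and 0.38 without the libraries that stand apart. With 1 mouse left out they ranged from 0.005 to 0.161, from -0.17 to -0.038 and from 0.076 to 0.314. The sign of *Apoe* was negative when libraries were rescaled to the same total.

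Sterol synthesis and uptake gave 1 call lower and 0 higher of 22 tested by limma, against 1.01% and 0.471% of all genes, with 2 at an unadjusted *P* under 0.05. The called gene was *Acat2*, the cytosolic acetyl-CoA acetyltransferase that starts the route to mevalonate, at chr17:12943042-12960725 on the minus strand, again within the CAST segment. It ranged from 176 to 439 normalized counts with a median of 290 in *b6/b6*, and from 40.4 to 290.6 with a median of 237 in *cast/cast* mice, and 4 *cast/cast* mice were below every *b6/b6* mouse. The log2 difference was -0.91 ± 0.29 (limma, *P* = 0.00416, adjusted *P* = 0.336). *Acat2* was also called lower with DESeq2 (-0.709, *P* = 0.00774). Its call was lost with edgeR (-0.71) and without the libraries that stand apart (-0.59). *Hmgcs1* and *Sc4mol*, abundant genes of the list, had log2 differences of -0.44 ± 0.21 and 0.01 ± 0.14 and were not called, and *Sc4mol* was at 0.10 without the libraries that stand apart.

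Cholesterol transport and storage gave 0 calls of 15 tested by limma, 0 by edgeR and 0 by DESeq2, with 0 at an unadjusted *P* under 0.05. *Clu*, *Lrp1* and *Npc1*, the 3 most abundant, had log2 differences of -0.50 ± 0.29, 0.09 ± 0.13 and 0.12 ± 0.24. *Lrp1* was at 0.005 and *Npc1* at 0.05 without the libraries that stand apart. With 1 mouse left out *Clu* was -0.306 without *cast/cast* replicate 2, and *Npc1* was 0.27 without *cast/cast* replicate 12.

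**Figure D3:**
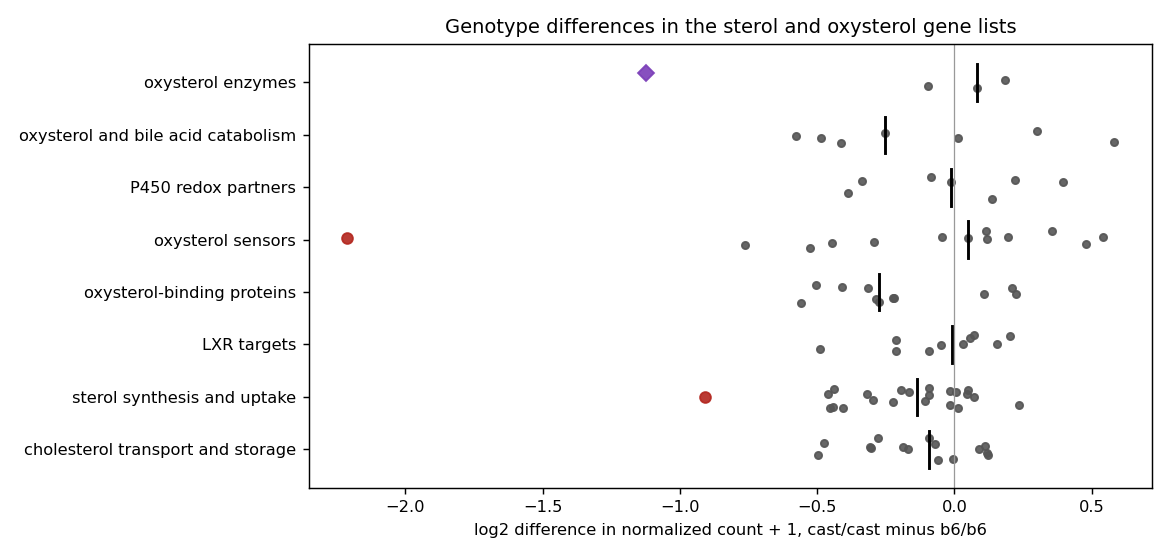
Log2 difference in normalized count + 1, *cast/cast* minus *b6/b6*, of every gene tested in 8 lists, with 12 mice per genotype. Each point is a gene, red points are called, the violet diamond is *Cyp39a1*, black bars are the list medians without it, and the vertical position within a list is arbitrary. The red points are *Rxrb* at -2.21 and *Acat2* at -0.91.

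Intake from the C/P diet and total intake were not used to choose these genes, and their relations were examined within each genotype over 12 mice. Of 24 relations of the 4 genes with C/P kcal, total kcal and study number, 1 had an adjusted *P* under 0.05. In *b6/b6* mice *Cyp46a1* was lower where C/P intake was higher, with Pearson's r of -0.80 (permutation *P* = 0.00205, adjusted *P* = 0.0492) and Spearman's rho of -0.70 (permutation *P* = 0.0134, adjusted *P* = 0.322). Without the 2 mice farthest from the median C/P intake r was -0.79. Without the 2 *b6/b6* libraries that stand apart it was -0.64 (permutation *P* = 0.0527, adjusted *P* = 0.608), and the mouse with the lowest C/P intake, 27.4 kcal, was one of these and had the highest *Cyp46a1*.

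In *cast/cast* mice r was 0.18 (permutation *P* = 0.566, adjusted *P* = 0.906), and the difference between the genotypes was not tested. *Cyp39a1* had r of 0.19 with C/P kcal in *b6/b6* (permutation *P* = 0.544, adjusted *P* = 0.906) and -0.10 in *cast/cast* mice (permutation *P* = 0.759, adjusted *P* = 0.969). With study number its r was 0.45 in *b6/b6* (permutation *P* = 0.139, adjusted *P* = 0.476) and -0.02 in *cast/cast* (permutation *P* = 0.941, adjusted *P* = 0.969). Over 10 mice per genotype, with the libraries that stand apart left out, the sign turned for C/P kcal in *b6/b6*, at -0.16, and for study number in *cast/cast*, at 0.09.

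**Figure D4:**
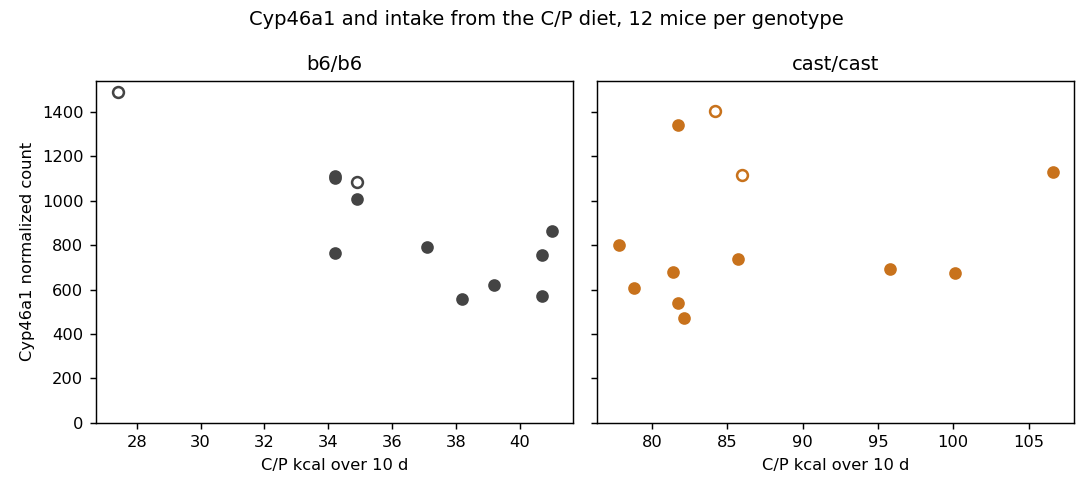
*Cyp46a1* normalized count against kcal eaten from the C/P diet over 10 d in 12 *b6/b6* mice (left) and 12 *cast/cast* mice (right), with separate intake axes. Points are mice and open points are libraries that stand apart. The *b6/b6* points fall from 1488 at 27.4 kcal toward 555 to 865 above 37 kcal, while the *cast/cast* points show no such slope.

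No relation between the levels of the 4 genes was detected from mouse to mouse. After removal of the genotype means, 0 of 6 pairs had an adjusted *P* under 0.05, and *Cyp7b1* with *Cyp27a1* had r of -0.35 (permutation *P* = 0.145, adjusted *P* = 0.733), which was -0.09 without the libraries that stand apart. *Cyp46a1* and *Cyp39a1*, which act in sequence, had r of 0.15 over 24 mice (permutation *P* = 0.488, adjusted *P* = 0.733) and a rho of 0.12 (permutation *P* = 0.599). Their r was 0.35 without the libraries that stand apart and -0.02 without the 2 mice farthest from the median.

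Levels of 9 marker lists for cell types and neighbouring tissues were compared with the 4 genes in 36 relations, and 0 had an adjusted *P* under 0.05. *Cyp46a1*, whose product is known from neurons, had r of 0.14 with the neuron list of 8 genes, led by *Snap25* (permutation *P* = 0.511, adjusted *P* = 0.707), and -0.12 without the libraries that stand apart. With the microglia list of 9 genes its r was -0.47 (permutation *P* = 0.023, adjusted *P* = 0.140), but -0.33 without those libraries and -0.06 on linear normalized counts. *Cyp39a1* had r between -0.30 and -0.09 with all 9 lists, and between -0.41 and 0.14 without those libraries. *Cyp27a1* had the highest r of any, 0.66 with the endothelium list (permutation *P* = 0.003, adjusted *P* = 0.093). Without the libraries that stand apart it was 0.60 (permutation *P* = 0.0149, adjusted *P* = 0.268). It was 0.31 without the 2 mice farthest from the median and 0.15 on linear normalized counts. On linear normalized counts 0 of the 36 relations had an adjusted *P* under 0.05 by Pearson's r and 1 had by Spearman's rho. This was *Cyp7b1* with the microglia list, at a rho of 0.69 (permutation *P* = 0.00028, adjusted *P* = 0.0101) and r of 0.57 (permutation *P* = 0.00252, adjusted *P* = 0.0666), against r of 0.06 on log2 values and 0.15 on log2 values without the libraries that stand apart.

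The sums of all 9 marker lists overlapped between the genotypes. The summed neuron markers were 41299 ± 6276 (*b6/b6*) and 44114 ± 5169 (*cast/cast*) normalized counts, astrocyte markers 33360 ± 2564 and 35258 ± 2694, and oligodendrocyte markers 25816 ± 8633 and 28799 ± 7615. Microglia markers summed to 5903 ± 714 and 6530 ± 1022 and endothelium markers to 2692 ± 331 and 2662 ± 430, in the same order. Hypothalamic neuropeptides summed to 16659 ± 4901 and 17479 ± 7820, choroid plexus markers to 180 ± 41.4 and 207 ± 135, and pituitary markers to 102 ± 133 and 82.5 ± 102. The *cast/cast* mouse of highest *Cyp39a1*, replicate 6, had the lowest neuropeptide sum of the 24 mice, 5900, and the highest choroid plexus sum, 574. The thalamus and cortex list summed to 430 ± 265.5 for *b6/b6* and 312 ± 81.8 for *cast/cast*, with *b6/b6* replicates 5 and 7 highest at 968 and 980. The 9 marker lists, with 3 to 10 genes tested in each, gave 1 call, against 1.49% of all genes. The called gene was *Tcf7l2* of the thalamus and cortex list, with a mean of 206 for *b6/b6* and 105 for *cast/cast* (limma, *P* = 0.0071, adjusted *P* = 0.449). The part of tissue composition in the *Cyp39a1* level was not tested.

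The genes whose level followed each enzyme most closely were taken from genes with a mean of at least 50 normalized counts, by Pearson's r of log2 values over 24 mice after removal of the genotype means. They are given as a description. For *Cyp39a1* they were *Pld1* (0.77), *Acsf2* (0.71) and *Pafah2* (0.71). For *Cyp46a1* they were *Grik5* (0.92), *Fbxo31* (0.92) and *Rpn2* (0.92), and for *Cyp7b1* they were *Stx8* (0.84), *1600020E01Rik* (0.83) and *Ppid* (0.81). For *Cyp27a1* they were *Snf8* (0.84), *Per2* (0.82) and *Prrc2b* (0.82). All libraries were made with the same kind of kit and share a normalization. Without the libraries that stand apart these values ranged from 0.63 for *Acsf2* to 0.91 for *Grik5*.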

How the data were processed

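The deposited signal values are normalized counts for each gene and mouse, which are tag hits divided by a size factor. The authors counted tags with a modified SOLiD SAGE Analysis Software against RefSeq mRNA and the GRCm38 genome, and took the size factor of each library from DESeq. Their own DESeq comparison columns (means, fold changes and P values) were not used. Dividing a library's values by the value of 1 tag hit in it recovered whole tag hits for 100% of values (tolerance 0.02). The table has 19529 rows for 13998 genes, and its starts, counted from 0, were raised by 1. Tags carry no molecular identifiers, so the floor of 3 tag hits covers counting error only.

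Differences between genotypes were fitted with limma 3.58.1 (lmFit, then eBayes with trend) for genes whose mean was 5 or more, on log2(normalized count + 1), without covariates and with Benjamini-Hochberg adjustment over all genes. Fold changes on this scale understate those of low genes. Each library is a separate mouse. Correlations within genotype or of genotype-centred values used two-sided permutation tests (100000 resamples). With *Ch25h* not analysed, adjustment was over 24 intake relations, 6 pairs and 36 marker relations. The closest of 276 pairs of libraries had a chi-square per gene of 15.4, so every library was counted as its own sample. Libraries stood apart when their median correlation with the others lay more than 3 scaled median absolute deviations below the median.

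The genes and lists were chosen with earlier results of these data known. Genes named were the enzymes, in each list every called gene and the 3 of highest mean, genes starting within 500 kb of *Cyp39a1*, and the 3 most correlated genes per enzyme. *Cyb5r3*, *Nr1h2*, *Srebf2*, *Rxrg*, *Osbp*, *Osbpl5* and *Hsd3b7* lie outside this rule and were named after their values were seen. Some items that this rule names are not reported here. Alternatives were a pseudocount of 0.5 or 5, a higher minimum mean (20), rescaling of all libraries to 1 common total, edgeR 4.0.16 (quasi-likelihood, TMM) and DESeq2 1.42.0 on tag hits, study number as a covariate, omission of libraries that stand apart, and omission of each mouse in turn. Predicted tags of 27 bases came from GENCODE vM21. Python 3.11.15 and R 4.3.3 were used, and the 3 tools were tested on simulated data.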

Additional observations from a re-analysis of the deposited data

How the results depend on the processing

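*Cyp39a1* was lower in *cast/cast* under each alternative, with log2 differences from -1.34 to -0.86, and from -1.23 to -1.003 when 1 mouse was left out. It and *Cyp27a1* fell below the minimum mean of 20. *Cyp46a1* and *Cyp7b1* kept their sign and were not called under any alternative. *Cyp27a1* turned negative with a pseudocount of 5 (-0.022), the common total (-0.004), edgeR (-0.259), DESeq2 (-0.27) and study number (-0.059), and ranged from -0.189 to 0.302 with 1 mouse left out. Calls over all genes, 208, numbered 391 with edgeR and 395 with DESeq2, those lower, 142, numbered 331, 313 and, with study number, 232, and those higher, 66, numbered 43 with the common total. With 1 mouse left out they ranged from 145 to 255, 97 to 169 and 48 to 86. The sensor list gave 3 calls with DESeq2 and 2 with study number (1 to 2 with 1 mouse left out). Oxysterol-binding proteins gave 1 with edgeR, and LXR targets gave 1 with the common total (0 to 1). Sterol synthesis gave 0 with edgeR and 0 without the libraries that stand apart. Without those libraries 0 intake relations passed adjustment at 0.05, and 1 relation between genes did, *Cyp39a1* with *Rcan2* (r of 0.59). Signs of genes that were not called also turned. With the common total these were *Apoe* (-0.019), *Lrp1* (-0.002), *Sc4mol* (-0.078) and *Scp2* (-0.079), and with study number *Osbpl8* (0.004), *Scp2* (-0.003) and *Rorb* (0.096, and 0.085 with edgeR and 0.099 with DESeq2). Without the libraries that stand apart they were *Hsd17b4* (0.064), *Insig1* (-0.375) and *Rxra* (-0.157). With 1 mouse left out *Insig1* ranged from -0.056 to 0.218, *Rorb* from -0.187 to 0.04, *Sc4mol* from -0.024 to 0.089 and *Scp2* from -0.052 to 0.088. With 1 mouse left out, some differences given here kept their sign but moved by more than 1.5 times. Besides those given above, they were *Cyp46a1* (-0.171 to -0.025), *Cyb5b* (-0.141 to -0.028), *Hmgcs1* (-0.522 to -0.27), *Hsd17b4* (-0.529 to -0.275), *Lrp1* (0.033 to 0.128) and *Rxra* (0.097 to 0.268). Other alternatives also moved differences by more than 1.5 times. With the common total, examples were *Cyp7b1* (0.094), *Gpr116* (-0.25), *Insig1* (0.025), *Osbpl2* (0.118), *Osbpl9* (0.133) and *Por* (0.129). The cause of these changes was not tested. No paired analysis was possible because replicate numbers follow accession order and pair no mice. *Cyp39a1* and *Cyp27a1* rested on medians of 8.5 to 20.5 tag hits per mouse, and the part of depth in their spread was not tested.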
